A study of Mus musculus with 6 samples.

Results

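The genes described are 10 receptors that lymphocytes use to restrain or tune their own activation, namely Klrg1, Tigit, Cd96, Cd226, Lag3, Havcr2, Pdcd1, Vsir, Btla and Cd200r1. They were chosen by name, all 10 were among the 18122 genes of the deposited table, and 8 of them passed the filter on low counts. The libraries were made from RNA of ILC2s (group 2 innate lymphoid cells), which lack antigen receptors and release type 2 cytokines, and which were isolated from the lungs of mice by sorting and kept in culture before RNA was taken. There were 3 libraries of ICOS KO cells, from mice whose genotype is given as C.129S4-Icostm1Shr/J, and 3 libraries of WT cells, given as BALB/C BYJ. Icos, the targeted gene, encodes the inducible T cell co-stimulator, a receptor of the CD28 family. The genotypes also differ in strain name, so a difference due to Icos and one due to strain DNA cannot be told apart. The series' design text speaks of duplicates, although 3 libraries of each genotype are labelled, and all 6 were used. Whether each library stands for its own mouse or culture is not stated, so the tests below use the spread between 3 libraries, which may be only technical.

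Many inhibitory receptors, such as KLRG1, PD-1 and TIGIT, carry short tyrosine motifs in their cytoplasmic tails that recruit phosphatases such as SHP-1 and SHIP-1, which oppose the kinases of activating receptors, while others signal through adaptors or tails without such motifs. KLRG1 binds cadherins on neighbouring cells and marks mature ILC2s, and PD-1, the product of Pdcd1, restrains ILC2s as it does T cells. TIGIT, CD96 and CD226 form a family that competes for the same ligands, the nectin-related protein PVR and its relatives. CD226 differs from the other members in that it is an activating receptor, so the set is not made of inhibitory receptors alone.

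Library totals ranged from 13738062 to 18736474 estimated counts, so that a floor of 3 reads in a library was 0.16 to 0.218 CPM, the scaled count used below. Icos was lower in every ICOS KO library, at 139.9, 170.2 and 161 CPM, against 434, 462 and 502 CPM in WT libraries. All 10 ILC2 markers, among them Gata3, were detected, and they summed to 10662 to 11438 CPM in ICOS KO libraries and 10792 to 11914 CPM in WT libraries. Of these 10, Il1rl1 rose and Rora fell (edgeR adjusted p = 0.0495 for Il1rl1 and 0.0155 for Rora), and 5 had an unadjusted p under 0.05. For comparison with this and the marker counts below, edgeR called 3.29% of all 13691 tested genes, and 19.9% had an unadjusted p under 0.05. Markers of other cells differed too. The 10 mast cell and basophil markers summed to 57.7 to 70.2 CPM in ICOS KO and 347 to 403 CPM in WT, and 7 of 8 tested ones fell. The 10 myeloid markers summed to 87.0 to 119.7 CPM in ICOS KO and 147.6 to 188.6 CPM in WT, and 1 of 9 tested ones fell (Csf1r). The 6 markers of NK cells and ILC1s summed to 3.91 to 7.57 CPM in ICOS KO and 6.42 to 10.3 CPM in WT. The 11 T cell markers summed to 391 to 502 CPM in ICOS KO and 268 to 324 CPM in WT. Of 8 tested T cell markers 2 rose (Trbc1 and Trbc2) and 1 fell (Cd3e). The 4 B cell markers summed to 29.7 to 45.8 CPM in ICOS KO and 25.2 to 26.3 CPM in WT. Of these 4, all tested, 1 rose (Cd79b, edgeR adjusted p = 0.0466). The table held no gene with a total under 10 counts, so no marker in it could be at 0 in all 6 libraries, and the listed markers Klra8, Klre1, Prss34, Ebf1 and Pax5 were not analysed here. The part of these cells in the results below was not tested. In such bulk samples, fewer cells of a type and less RNA per cell cannot be told apart.

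Of the 8 receptors tested, 3 rose in ICOS KO cells (Klrg1, Tigit and Vsir) and 1 fell (Cd96), by edgeR's quasi-likelihood test with an adjusted p of 0.05 as the threshold. Over all 13691 tested genes 3.29% were called, 1.29% as higher and 2.01% as lower. The receptors were chosen with earlier results of these libraries known, so their share of calls is a description and no evidence about the family. Their median log2 fold change was 0.08, against -0.0035 over all tested genes. An unadjusted p under 0.05 was found for 5 of the 8 (those 4 and Pdcd1), against 19.9% of all tested genes. The libraries of the 2 genotypes did not overlap for 5 of the 8, the 4 called and Cd226, as was the case for 24.4% of tested genes.

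**Figure D1:**
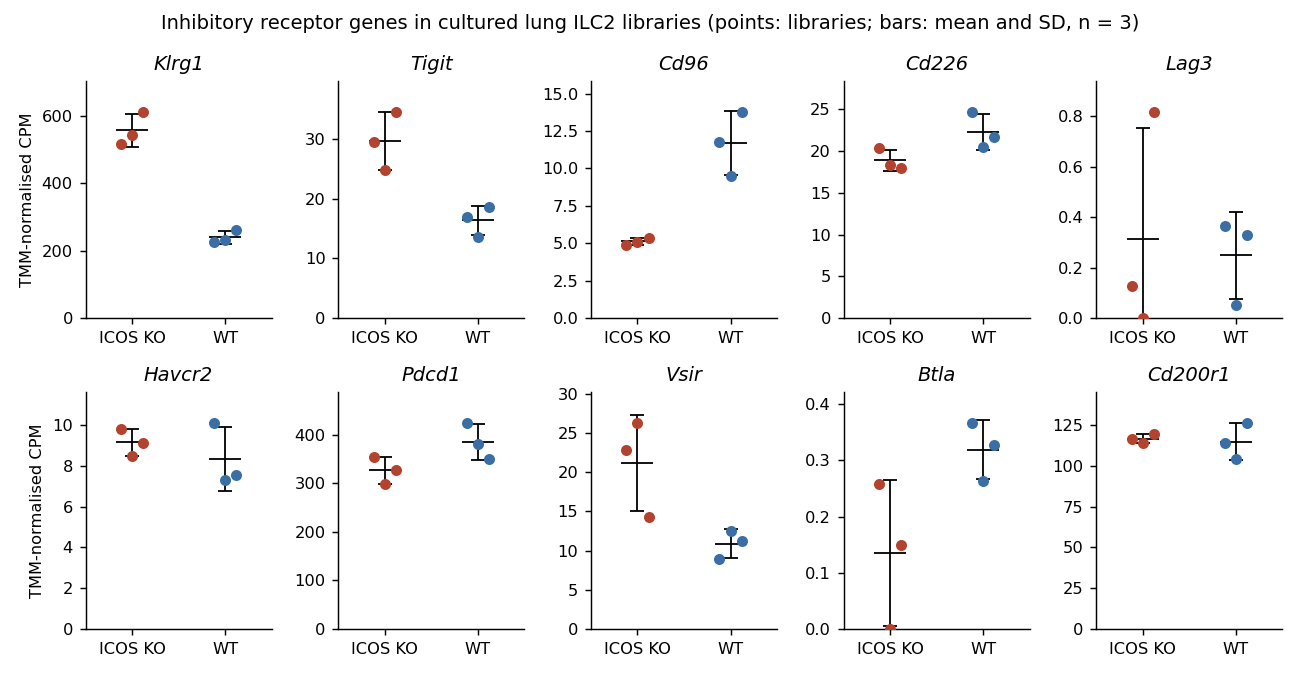
TMM-normalised CPM of the 10 receptor genes in 3 ICOS KO libraries (left in each panel) and 3 WT libraries (right), with each panel on its own linear axis from 0. Points are libraries and bars are means with SD, cut off at 0. Klrg1, Tigit and Vsir stand higher in every ICOS KO library and Cd96 lower, while Lag3 and Btla lie below 1 CPM throughout.

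Klrg1, the receptor for cadherins, had the largest rise of the 8 tested receptors. It stood at 517, 543 and 612 CPM in ICOS KO libraries, against 227, 231 and 263 CPM in WT libraries. Each ICOS KO library was therefore well above the highest WT library. The means were 557 ± 49.4 CPM in ICOS KO and 240.3 ± 19.4 CPM in WT (SD, n = 3 each), 2.32-fold apart, with a log2 fold change of 1.21 ± 0.10 (SE) and an edgeR adjusted p of 5.9e-05. The call was made in all 17 alternative fits, with log2 fold changes of 1.09 to 1.28. Klrg1 lies on the minus strand of chromosome 6 at 122270596 to 122282882 (GRCm38), and no other annotated gene overlaps it.

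Among the 9816 other tested genes with a mean of at least 5 CPM, the pattern most like that of Klrg1 over the 6 libraries, by Pearson r of log2 CPM, was that of Rcn3, a calcium-binding protein of the secretory pathway (r = 0.999). Gm6637 (r = 0.996) and Ctsh, the lysosomal protease cathepsin H (r = 0.996), followed. These points share their libraries and the split into 2 genotypes, so the r values are a description. Gm6637 is annotated as a processed pseudogene of 382 bases on the plus strand of the same chromosome, at 122295664 to 122296045, and 12.8 kb separate it from the 5′ end of Klrg1. It stood at 21.8, 24.9 and 26.4 CPM in ICOS KO libraries, against 9.07, 10.0 and 11.5 CPM in WT libraries. Its difference of 1.26 ± 0.17 on the log2 scale (SE; edgeR adjusted p = 0.00162) was close in size to that of Klrg1, and it was called in all 17 alternative fits. The 3 other genes tested within 100 kb of Klrg1, looked up after these values were seen, were not called. M6pr, a mannose 6-phosphate receptor that begins 25.8 kb from Klrg1, differed by 0.07 on the log2 scale (edgeR adjusted p = 0.64). Phc1, a Polycomb protein, differed by 0.32 (edgeR adjusted p = 0.631), and Gm44227, a pseudogene between Gm6637 and M6pr, by 0.67 (edgeR adjusted p = 0.403). Reads of processed pseudogenes can be shared with their parent genes, so the level of Gm6637 is uncertain.

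Within the family that shares PVR as a ligand, Tigit rose, Cd96 fell and Cd226 was not called. Tigit, the inhibitory receptor with the highest affinity for PVR, stood at 29.5, 24.8 and 34.5 CPM in ICOS KO libraries, against 16.9, 13.67 and 18.6 CPM in WT libraries. The lowest ICOS KO library was above the highest WT library. The means were 29.6 ± 4.86 CPM in ICOS KO and 16.4 ± 2.48 CPM in WT (SD, n = 3 each), 1.81-fold apart, with a log2 fold change of 0.86 ± 0.17 (SE) and an edgeR adjusted p of 0.0203. The call was lost without ICOS KO replicate 3 (adjusted p = 0.113), WT replicate 1 (0.0824) or WT replicate 2 (0.12), with fold changes of the same direction, and was kept in the other fits.

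Cd96, a receptor for PVR known chiefly from NK and T cells, stood at 4.91, 5.11 and 5.34 CPM in ICOS KO libraries, against 11.7, 9.52 and 13.8 CPM in WT libraries. All ICOS KO libraries lay within a narrow band below the lowest WT library. Cd96 was 2.28-fold lower in ICOS KO, at -1.19 ± 0.23 on the log2 scale (SE; edgeR adjusted p = 0.0146). The call was lost without ICOS KO replicate 3 (adjusted p = 0.055), WT replicate 1 (0.0715) or WT replicate 3 (0.0549). Markers of NK cells and T cells differed in both directions. Of the 4 tested NK cell and ILC1 markers, 2 fell (Ncr1 and Tbx21), Klrk1 had a negative log2 fold change (-2.89, edgeR adjusted p = 0.0728) and Prf1 a positive one (0.89, edgeR adjusted p = 0.219). Ncr1, the NK receptor NKp46, had 0, 0 and 0.0742 CPM in ICOS KO libraries, against 1.42, 1.21 and 1.64 CPM in WT libraries. Of the 8 tested T cell markers, 4 had positive and 4 negative log2 fold changes, with 2 called higher and 1 lower by edgeR. The T cell marker called lower was Cd3e, a chain of the T cell receptor complex. Cd3e had 3.10, 0.752 and 3.04 CPM in ICOS KO libraries, against 7.76, 10.5 and 8.39 CPM in WT libraries. The T cell receptor constant genes Trbc1 and Trbc2 rose instead, with Trbc1 at 101 to 142.9 CPM in ICOS KO libraries and 55.2 to 65.2 CPM in WT libraries. The part of these cells in the fall of Cd96 was not tested.

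Cd226, the activating competitor, stood at 20.3, 18.3 and 17.96 CPM in ICOS KO libraries, against 24.6, 20.5 and 21.7 CPM in WT libraries. The libraries of the genotypes did not overlap, but the gap was small beside their spread. The log2 fold change was -0.24, with a 95% confidence interval of -0.57 to 0.09 (edgeR adjusted p = 0.388), so a fall of up to 0.57 on the log2 scale or a small rise could not be told from no difference.

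Ratios of counts within a library need no scaling between libraries. Tigit had 1.45, 1.35 and 1.92 reads per read of Cd226 in ICOS KO libraries, against 0.685, 0.668 and 0.855 in WT libraries. The inhibitory receptor thus had more reads than the activating one in each ICOS KO library and fewer in each WT library. Cd96 had 0.242, 0.279 and 0.298 reads per read of Cd226 in ICOS KO libraries, against 0.477, 0.465 and 0.634 in WT libraries. The ratio of Tigit to Cd96 was 6, 4.85 and 6.46 in ICOS KO libraries, against 1.44, 1.44 and 1.35 in WT libraries, a 4.07-fold difference and the widest of the 3. This ratio is fixed by the other ratios, and its width follows from the opposite calls of Tigit and Cd96 given above. It is therefore no separate result. Each ratio separated the genotypes, and an exact two-sided permutation test gave p = 0.1 for each (adjusted over the 3 ratios, 0.1), the smallest that 3 against 3 libraries allow, so this design cannot reach 0.05. These ratios are of reads and not per transcript length, so they compare libraries and not the levels of the genes.

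**Figure D2:**
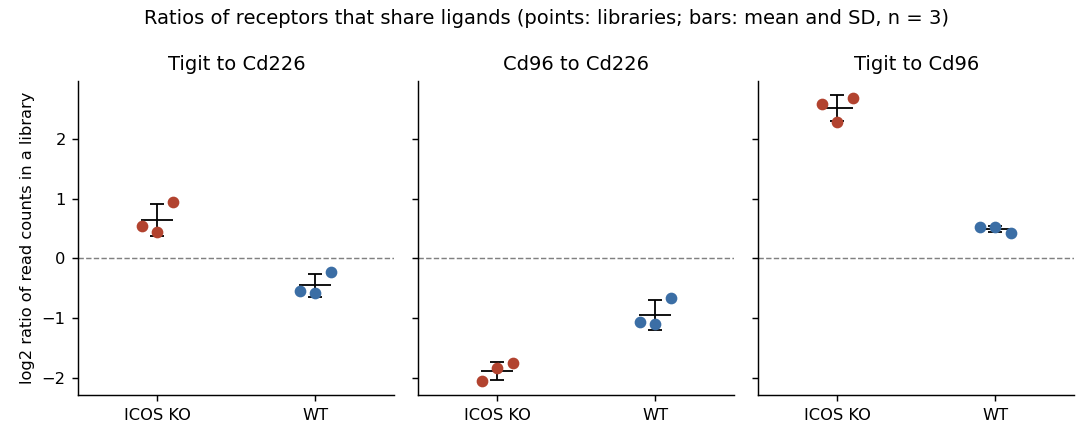
Log2 ratio of read counts within each library for Tigit to Cd226, Cd96 to Cd226 and Tigit to Cd96, with 3 ICOS KO libraries left and 3 WT libraries right in each panel. Points are libraries and bars are means with SD. The ratio of Tigit to Cd226 is above 0 in ICOS KO libraries and below 0 in WT libraries, and the ratio of Tigit to Cd96 shows the widest gap, a log2 difference of 2.03. The ratios are of reads and not per transcript length, so 0 does not mark equal levels of the genes.

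Vsir encodes VISTA, an inhibitory protein of the B7 family that is abundant on myeloid cells and also made by T cells. It stood at 22.8, 26.3 and 14.3 CPM in ICOS KO libraries, against 8.86, 12.5 and 11.2 CPM in WT libraries. ICOS KO replicate 3 was only slightly above the highest WT library. Vsir was 1.95-fold higher in ICOS KO, at 0.96 ± 0.23 on the log2 scale (SE; edgeR adjusted p = 0.0473). Of the 6 fits with a library left out, 5 lost the call (the exception was that without ICOS KO replicate 3), at adjusted p reaching 0.206. It was also lost with voom (adjusted p = 0.0623), with voom and quality weights (0.0688), with scaling by library totals alone (0.0562) and when low counts were not filtered (0.0587). All 9 tested myeloid markers had negative log2 fold changes, with a median of -0.65, and 1 of them was called (Csf1r). Of the 8 tested T cell markers 4 had positive and 4 negative log2 fold changes. The part of these cells in the level of Vsir was not tested. Vsir lies inside the span of Cdh23 on the opposite strand. Cdh23 was not among the genes of the deposited table, and the strand setting of the counting is not given in the sources used here.

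Pdcd1, which encodes PD-1, was among the most abundant of the receptors in both genotypes. It stood at 354, 299 and 326 CPM in ICOS KO libraries, against 424, 382 and 351 CPM in WT libraries. The genotypes overlapped by a single pair, ICOS KO replicate 1 and WT replicate 3. The log2 fold change was -0.24 ± 0.10 (SE), with an unadjusted 95% confidence interval of -0.47 to -0.02 and an edgeR adjusted p of 0.227. No alternative fit called it, at adjusted p of 0.107 or above. Pdcd1 lies on chromosome 1 at 94038305 to 94052553, the chromosome that also carries Icos.

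Cd200r1, the inhibitory receptor for CD200, differed little between the genotypes. It stood at 117, 114 and 119 CPM in ICOS KO libraries, against 114, 104 and 126 CPM in WT libraries. The ICOS KO values lay within the WT range. The log2 fold change was 0.02, with a 95% confidence interval of -0.20 to 0.25 (edgeR adjusted p = 0.916). Its neighbours Cd200r3 and Cd200r4, chosen after their values were seen, are related receptors that in mice lack the inhibitory tail. Cd200r3, known from mast cells and basophils, had 0.258, 1.43 and 0.891 CPM in ICOS KO libraries, against 4.67, 3.84 and 2.43 CPM in WT libraries (log2 fold change -2.10, edgeR adjusted p = 0.0664). Cd200r4 had 3.88, 3.53 and 3.56 CPM in ICOS KO libraries, against 6.45, 5.73 and 5.18 CPM in WT libraries (-0.66, edgeR adjusted p = 0.21). Neither passed the threshold by edgeR, although their libraries did not overlap, as was the case for 24.4% of tested genes. Cd200r3 was called by DESeq2 (adjusted p = 0.00733) and voom with quality weights (0.0295) but not by voom (0.0568). Cd200r4 was called neither by DESeq2 (adjusted p = 0.204) nor by voom with quality weights (0.125). Reads can be shared among these similar genes. The mast cell and basophil markers given above fell with them, and their part was not tested.

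Havcr2, which encodes TIM-3, stood at 9.82, 8.49 and 9.13 CPM in ICOS KO libraries, against 10.1, 7.31 and 7.54 CPM in WT libraries. The genotypes overlapped, and the log2 fold change of 0.14 had a 95% confidence interval of -0.35 to 0.62 (edgeR adjusted p = 0.769). Lag3, a receptor for MHC class II molecules, and Btla, the receptor for HVEM, did not pass the filter. Lag3 had 2, 0 and 11 reads in ICOS KO libraries, against 7, 1 and 5 reads in WT libraries. Btla had 4, 0 and 2 reads in ICOS KO libraries, against 7, 5 and 5 reads in WT libraries. The genotypes overlapped for Lag3 and not for Btla. Both genes were thus within a few reads of the floor of 3 in most libraries, and a difference was not detectable at this depth. In a fit without the filter their adjusted p were 0.934 for Lag3 and 0.683 for Btla.

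**Figure D3:**
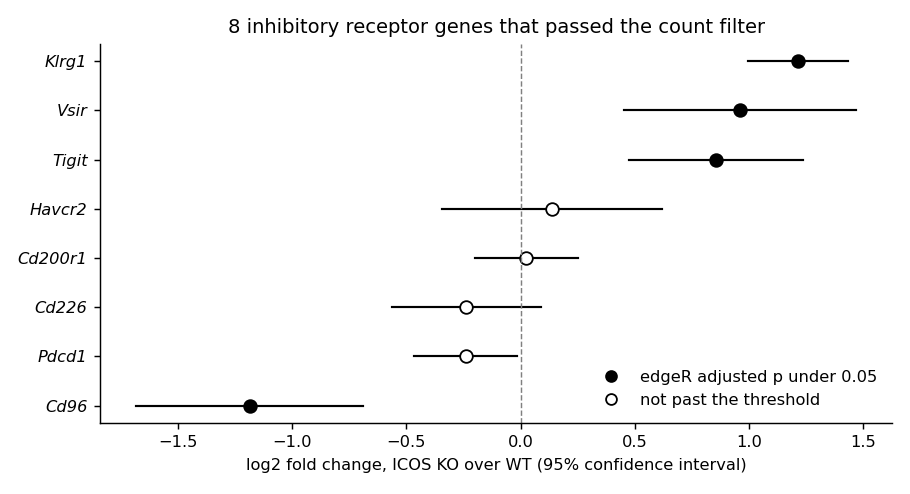
Log2 fold change of ICOS KO over WT with its 95% confidence interval for the 8 receptors that passed the count filter, ordered by size. Filled points passed an edgeR adjusted p of 0.05. Klrg1, Vsir and Tigit lie above 0 at 1.21, 0.96 and 0.86, and Cd96 lies below it at -1.19.

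Scaled to the length of their exons in GENCODE M21 (CPM per kilobase), the receptors spanned several orders of magnitude, and their order differed between genotypes. In ICOS KO cells Klrg1 came first at 394 ± 35.0, followed by Pdcd1 at 169 ± 14.3, Cd200r1 at 34.9 ± 0.776 and Tigit at 32.2 ± 5.29 CPM per kilobase (SD, n = 3). Vsir (4.22), Cd226 (3.86), Havcr2 (3.36) and Cd96 (2.34) made a lower tier, and Lag3 (0.149) and Btla (0.0399) came last. In WT cells Pdcd1 came first at 199.8 ± 19.2, followed by Klrg1 at 169.9 ± 13.704, Cd200r1 at 34.3 ± 3.38 and Tigit at 17.8 ± 2.6997 CPM per kilobase (SD, n = 3). Cd96 (5.35), Cd226 (4.55), Havcr2 (3.06) and Vsir (2.17) formed the lower tier there. By their means, Cd96 was thus the highest of these 4 in WT and the lowest of them in ICOS KO, while Vsir was the highest of them in ICOS KO and the lowest in WT. The top place of Vsir in ICOS KO is uncertain, as its libraries ranged from 2.86 to 5.25 and overlapped those of Havcr2 (3.12 to 3.61) as well as Cd226. Neighbours in the order whose libraries overlapped were Cd200r1 and Tigit, Vsir and Cd226, and Lag3 and Btla in ICOS KO, and Pdcd1 and Klrg1, Cd96 and Cd226, and Lag3 and Btla in WT. The ratio of Klrg1 to Pdcd1 per kilobase was 1.99, 2.48 and 2.56 in ICOS KO libraries, against 0.731, 0.827 and 1.02 in WT libraries. Klrg1 made up 61.2% of the receptors' summed level per kilobase in ICOS KO and 38.9% in WT.

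Tigit, Cd200r1, Btla and Cd96 lie together on chromosome 16, between 43648867 and 46120251 (GRCm38), a segment of 2.47 Mb. Tigit at one end rose, Cd96 at the other end fell, Cd200r1 between them was not called and Btla was near the floor. Of the 25 other genes of the table in this segment 21 were tested, 1 fell and 0 rose by edgeR, while 5 had an unadjusted p under 0.05, DESeq2 called 2, voom 1 and voom with quality weights 2. Of all tested genes 19.9% had such an unadjusted p, DESeq2 called 6.79%, voom 3.09% and voom with quality weights 6.62%. By edgeR the called share of the segment's other genes was 4.76%, against the 3.29% of all tested genes. The median log2 fold change of these other genes was -0.11. The gene that fell was Zdhhc23, a palmitoyltransferase, at 13.5, 10.0 and 11.4 CPM in ICOS KO libraries, against 38.01, 39.0 and 27.5 CPM in WT libraries (-1.58 ± 0.18 on the log2 scale, SE; edgeR adjusted p = 0.000708).

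**Figure D4:**
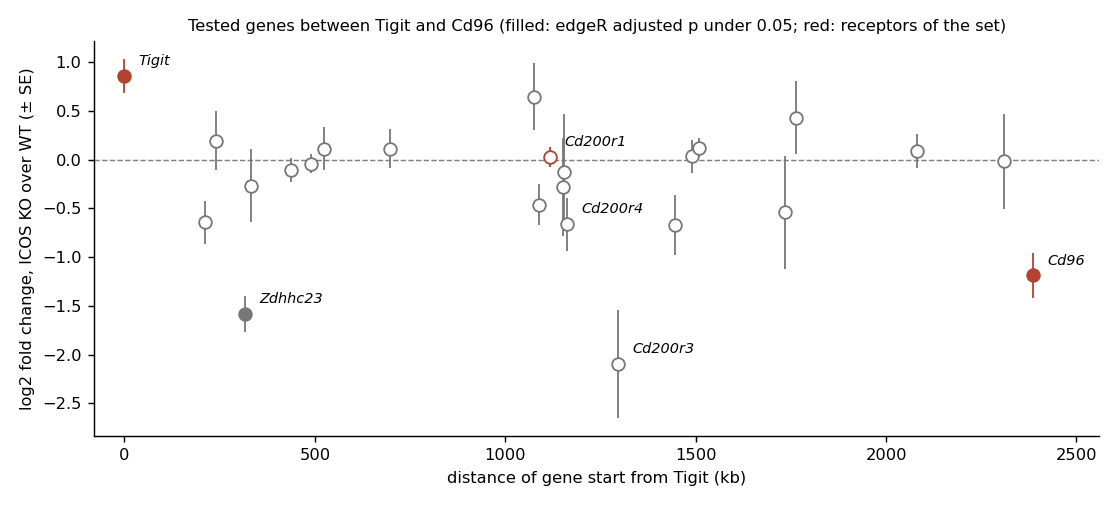
Log2 fold change of ICOS KO over WT (with SE) for the tested genes from Tigit to Cd96, plotted by the distance of the gene's start from that of Tigit in kb. Red points are receptors of the set, grey points other genes, and filled points passed an edgeR adjusted p of 0.05. Tigit (0.86), Zdhhc23 (-1.58) and Cd96 (-1.19) are filled, and the other genes, most of them near 0, are open.

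The 250 bases before the start sites of the called receptors are shown because Tigit and Vsir rose while Cd96 fell. They come from RefSeq (GRCm38.p6), which gave windows for 3 of the 4 called receptors and not for Klrg1. They were searched on both strands for the GATA motif AGATAA, the motif TGTGGT of RUNX factors, the E-box CACGTG that is bound by Bhlhe40, the AP-1 motif TGANTCA, and TGCTGA, which is the core of the Maf element. Matches are in capitals, and each sequence runs 5′ to 3′ on the gene's strand. The windows are chr16:43664185-43664434 (minus strand) for Tigit, chr10:60346601-60346850 (plus strand) for Vsir and chr16:46120249-46120498 (minus strand) for Cd96.
Tigit: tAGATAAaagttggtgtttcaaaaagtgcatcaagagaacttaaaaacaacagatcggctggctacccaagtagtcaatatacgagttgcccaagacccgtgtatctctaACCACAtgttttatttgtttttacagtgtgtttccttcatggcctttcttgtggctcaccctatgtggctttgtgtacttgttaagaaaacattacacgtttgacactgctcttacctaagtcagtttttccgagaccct
Vsir: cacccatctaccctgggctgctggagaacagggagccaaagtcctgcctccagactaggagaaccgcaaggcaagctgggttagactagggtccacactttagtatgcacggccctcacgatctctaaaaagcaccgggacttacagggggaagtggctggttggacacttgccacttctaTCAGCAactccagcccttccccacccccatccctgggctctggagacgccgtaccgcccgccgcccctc
Cd96: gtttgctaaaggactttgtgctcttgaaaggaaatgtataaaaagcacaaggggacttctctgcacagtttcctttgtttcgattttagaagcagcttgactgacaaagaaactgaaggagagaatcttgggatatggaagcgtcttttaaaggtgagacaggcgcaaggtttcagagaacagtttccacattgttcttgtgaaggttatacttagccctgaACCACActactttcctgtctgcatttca
Tigit held AGATAA at -249 to -244 from the start site and the RUNX motif, on the reverse strand, at -140 to -135. Cd96 held the RUNX motif on the reverse strand at -28 to -23, and Vsir the Maf core on the reverse strand at -69 to -64. Among 32851 mouse windows of the same length, 9.99% held the GATA motif, 14.0% the RUNX motif, 6.02% the E-box, 6.75% the AP-1 motif and 16.1% the Maf core. The matches describe these letters only, and the RUNX motif was held both by Tigit, which rose, and by Cd96, which fell.

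No ligand of the receptors was called by edgeR. Of 18 ligand genes 13 were tested, with a median log2 fold change of -0.07. By edgeR and voom 0 were called, against 3.29% and 3.09% of all tested genes. Voom with quality weights called 2, against 6.62% of all tested genes, and DESeq2 1, against 6.79%. An unadjusted p under 0.05 was found for 3, against 19.9%. The most abundant was Hmgb1, a nuclear protein that binds TIM-3 when released, at 1340 ± 86.8 CPM in ICOS KO and 1238 ± 38.3 CPM in WT (SD, n = 3 each; edgeR adjusted p = 0.439). Cd274, which encodes the PD-1 ligand PD-L1, was chosen after its values were seen. It had 6.14, 6.31 and 4.45 CPM in ICOS KO libraries, against 13.2, 10.4 and 8.72 CPM in WT libraries, and was called by DESeq2 (adjusted p = 0.0174) and voom with quality weights (0.0319) but not by edgeR (0.0694). Pvr, the shared ligand of the Tigit family, had 2.75 to 6.77 CPM in ICOS KO libraries and 3.15 to 5.03 CPM in WT libraries (edgeR adjusted p = 0.638).

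None of the other inhibitory receptors listed was called by edgeR either. Of 26 listed genes 15 were tested, with a median log2 fold change of -0.19. By edgeR and voom 0 were called, against 3.29% and 3.09% of all tested genes. Voom with quality weights called 2, against 6.62% of all tested genes, and DESeq2 3, against 6.79%. An unadjusted p under 0.05 was found for 5, against 19.9%. The most abundant was Lilrb4a, a leukocyte immunoglobulin-like receptor, at 90.4 ± 2.88 CPM in ICOS KO and 103 ± 9.78 CPM in WT (SD, n = 3 each; edgeR adjusted p = 0.336), whose reads can be shared with a near copy. The 3 that DESeq2 called, chosen after their values were seen, all had positive fold changes. They were Ctla4, the receptor that competes with CD28 (17.1 ± 1.40 CPM in ICOS KO and 11.05 ± 1.10 CPM in WT, edgeR adjusted p = 0.0748), Cd160, another HVEM receptor (6.49 ± 0.429 CPM in ICOS KO and 3.34 ± 0.237 CPM in WT, edgeR adjusted p = 0.0818), and Pecam1, an adhesion receptor with inhibitory motifs (68.5 ± 2.03 CPM in ICOS KO and 51.2 ± 5.09 CPM in WT, edgeR adjusted p = 0.0777; SD, n = 3 each). Ctla4 lies beside the targeted gene on chromosome 1, at 60887000 to 60915832, with Icos at 60977927 to 61000320.

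Downstream of the receptors, 20 of 22 listed signalling genes were tested, of which 1 rose and 1 fell by edgeR (median log2 fold change -0.10), against 3.29% of all tested genes called in either direction. DESeq2 and voom with quality weights each called 3, against 6.79% and 6.62% of all tested genes, and voom 1, against 3.09%. An unadjusted p under 0.05 was found for 4, against 19.9%. Prkcq, the kinase PKC-theta of antigen and co-stimulatory receptor signalling, had 65.7, 60.9 and 63.7 CPM in ICOS KO libraries, against 32.7, 35.4 and 33.4 CPM in WT libraries (0.91 ± 0.11 on the log2 scale, SE; edgeR adjusted p = 0.00107). It was called in all 17 alternative fits. Lyn, a Src family kinase that phosphorylates inhibitory motifs, had 38.9, 32.8 and 33.6 CPM in ICOS KO libraries, against 55.2, 46.2 and 51.7 CPM in WT libraries (edgeR adjusted p = 0.0467). That call was lost in 4 of 11 alternative fits on all libraries and in 5 of 6 with a library left out, at adjusted p reaching 0.225. Of the phosphatases and adaptors that receptors of the set recruit, those named here for their role, chosen after their values were seen, were not called. Ptpn6 (SHP-1) stood at 63.7 ± 1.08 CPM in ICOS KO and 68.8 ± 2.83 CPM in WT, Inpp5d (SHIP-1) at 136.9 ± 18.5 CPM in ICOS KO and 141.7 ± 17.9 CPM in WT, and Dok2, the adaptor of CD200R1, at 516 ± 40.5 CPM in ICOS KO and 512 ± 30.6 CPM in WT (SD, n = 3 each), with edgeR adjusted p of 0.573 for Ptpn6, 0.86 for Inpp5d and 0.965 for Dok2.

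Among 19 tested transcription factors of 22 linked to the expression of such receptors in lymphocytes, 1 rose and 4 fell by edgeR (median log2 fold change -0.23), against 1.29% of all tested genes called higher and 2.01% called lower. DESeq2 and voom with quality weights each called 9 of the 19, against 6.79% and 6.62% of all tested genes. Voom called 5, against 3.09%, and 11 had an unadjusted p under 0.05, against 19.9%. Maf, which promotes co-inhibitory receptors in T cells, had 54.5, 67.6 and 66.3 CPM in ICOS KO libraries, against 40.6, 33.5 and 40.9 CPM in WT libraries (edgeR adjusted p = 0.0138). Bhlhe40, a helix-loop-helix repressor, had 61.4, 54.9 and 58.9 CPM in ICOS KO libraries, against 130.4, 126 and 93.75 CPM in WT libraries (edgeR adjusted p = 0.00162). Id3, an inhibitor of E proteins, and Irf4, a partner of BATF, also fell, with Id3 at -1.16 ± 0.18 and Irf4 at -0.71 ± 0.13 on the log2 scale (SE), at edgeR adjusted p of 0.00504 for Id3 and 0.0104 for Irf4. Tbx21, which encodes T-bet, had 0.388, 0 and 0.148 CPM in ICOS KO libraries, against 2.83, 2.26 and 1.11 CPM in WT libraries (edgeR adjusted p = 0.0375), and it also counts among the NK cell and ILC1 markers. The calls of Maf and Irf4 were lost without ICOS KO replicate 3, WT replicate 1 or WT replicate 2, at adjusted p reaching 0.0958 for Maf and 0.0799 for Irf4. That of Tbx21 was lost without the filter (adjusted p = 0.0505) and in all fits with a library left out but that without ICOS KO replicate 1, at adjusted p reaching 0.201.

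The genes most like Tigit over the 6 libraries were Eipr1, a protein of endosomal recycling (Pearson r = 0.991), Srp54b, a subunit of the signal recognition particle with near-identical copies (0.99), and Lpar6, a receptor for lysophosphatidic acid (0.989). None of them was called by edgeR (adjusted p = 0.545 for Eipr1, 0.216 for Srp54b and 0.12 for Lpar6). Their log2 fold changes were 0.11 for Eipr1, 0.21 for Srp54b and 0.34 for Lpar6, all smaller than the 0.86 of Tigit.

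The calls were recomputed under 17 alternatives, whose share of called genes among those tested in each fit sets the background for the receptors' own counts. DESeq2 called the same 4 receptors (6.79% of tested genes), while voom (3.09%) and voom with quality weights (6.62%) called 3, without Vsir. Other scalings, by RLE factors (3.31%), upper quartiles (3.28%) or library totals (3.29%), kept Klrg1, Tigit and Cd96, as did a floor of 5 CPM (4.69%), no filter (2.12%), a length and GC correction (4.33%), the removal of mitochondrial, haemoglobin and immunoglobulin genes (3.49%) and a replicate block (5.73%). Fits with a library left out called 7.69%, 2.18% and 1.51% of genes without ICOS KO replicates 1, 2 and 3, and 1.36%, 1.37% and 2.58% without WT replicates 1, 2 and 3. Klrg1 kept its call in each of them, and Tigit lost its call in the 3 that called the fewest genes.

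**Figure D5:**
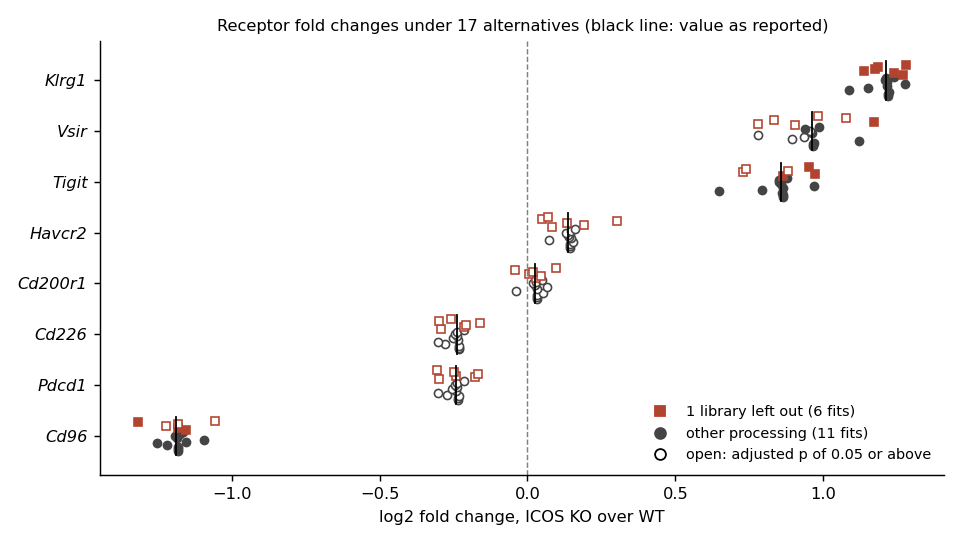
Log2 fold change of ICOS KO over WT for the 8 tested receptors under 17 alternatives, of which 6 leave out a library (red squares) and 11 change the normalisation, filter, test or model (dark circles). Open symbols mark an adjusted p of 0.05 or above, and black lines the values as reported. Klrg1 is filled throughout, Tigit, Cd96 and Vsir are open in part, and of the 8 only Cd200r1 changes sign.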

How the data were processed

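The authors deposited estimated counts, as 1 table of libraries by genes, and 38.95% of its values were not whole (tolerance 1e-06). Per the submitters' processing notes, Partek 10.0, STAR 2.7.8, DESeq2 and the build mm10 (GRCm38) were used. Which annotation, counting method and strand option were used is not given in the sources used here. Per the labels' protocols, cDNA came from a low-input SMARTer kit. No molecular identifiers are mentioned, so floors cover counting error only.

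Rows were matched to samples by library name. Counts were rounded, filtered with filterByExpr (13691 genes kept), normalised by TMM and compared in edgeR 4.0.16 (R 4.3.3) by its quasi-likelihood test, ICOS KO against WT, with Benjamini-Hochberg adjustment over all tested genes and a threshold of 0.05. Positions and exon lengths came from GENCODE M21 (GRCm38), matched by symbol for 17691 genes. SE and intervals follow from the F statistic. On counts simulated for this comparison over 13388 genes, the fit recovered 30% of 50 genes changed 1.5-fold, 60% at 2-fold and 92% at 4-fold.

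The members and lists were chosen with earlier results of these data known. Named genes were the members, Icos, up to 6 called genes per list (or the most abundant) and the 3 genes most like Klrg1 and Tigit. Alternatives used DESeq2 1.42.0, limma 3.58.1, other scalings and filters, a replicate block, a length and GC correction, and each library left out. No pair of libraries was a second copy (chi-square per degree of freedom at least 8.36).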

Additional observations from a re-analysis of the deposited data

How the results depend on the processing

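Of the receptors, 3 were called higher and 1 lower. Leaving out a library gave 1 to 2 higher and 0 to 1 lower, and Klrg1 was called each time. Over all genes 451 were called, against 929 with DESeq2, 906 with weighted voom, 784 with the replicate block, and 193 to 1090 without a library (193 without WT replicate 1, 194 without WT replicate 2, 216 without ICOS KO replicate 3, 1090 without ICOS KO replicate 1). The cause was not tested. Cd200r1, at 0.02, changed sign with library totals alone (-0.039) and ranged from -0.0422 (without WT replicate 2) to 0.0979 (without WT replicate 3). The log2 difference of Tigit to Cd226 ranged from 0.94 to 1.202 without a library, that of Cd96 to Cd226 from -1.02 to -0.79 and that of Tigit to Cd96 from 1.94 to 2.15. Deviations of same-numbered libraries correlated at 0.0643 to 0.0868, under the 0.1 that would pair them, though each library correlated best with its own number, and the block changed no receptor's call. At 3 libraries a genotype, changes of 1.5-fold were mostly missed on simulated counts, and Lag3 and Btla, with 0 to 11 reads a library, were too low to test.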
